A study of Homo sapiens with 6 samples.

Results

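The genes described here are 37 human genes of homologous recombination, the Fanconi anaemia pathway and DNA break repair, chosen by symbol from knowledge of these pathways and found by exact name in the gene table. All 37 were among the 28317 genes of the table, and all 37 passed the filter on low counts that left 15757 genes for testing. RNA was sequenced from A549 cells, an established line from a human lung adenocarcinoma. Every culture was infected with a lentivirus carrying the lentiCRISPR v2 construct, which expresses the Cas9 nuclease and a guide RNA, then selected in puromycin for 5 days and harvested on day 7 after infection. In 3 cultures the guide, named UXS1 g1, targeted UXS1, the gene of UDP-xylose synthase (UXS1 KO), and in 3 control cultures it was non-targeting (CTRL). The design text calls each group a biological triplicate, but no label ties a culture to an infection of its own, so the tests speak only of variation between these 6 cultures, which may be technical. The labels give a single UXS1 guide and no clone, so the UXS1 KO cultures may mix edited and unedited cells.

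Homologous recombination repairs a broken chromosome by copying the sister chromatid. Ends are first trimmed to single strands by nucleases, mediators such as BRCA2 then load the recombinase, and helicases resolve the joint molecules. The Fanconi core complex attaches ubiquitin to FANCD2 and FANCI at crosslinks between DNA strands, and recombination completes that repair. Non-homologous end joining seals ends directly, with the Ku proteins and a DNA-dependent kinase, at any stage of the cell cycle. Many recombination and Fanconi genes are transcribed mainly as cells enter S phase, under E2F factors, whereas break sensors and end-joining factors are made more evenly through the cycle. On that background knowledge the 37 genes were divided into 17 cell-cycle-linked genes, 10 sensor or end-joining genes and 10 left unclassified. Earlier results of these data were known when the genes were chosen and divided, so the contrast between classes could have been shaped by them.

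Repair transcripts were lower in the UXS1 KO cultures, and the cell-cycle-linked genes fell as a block. By edgeR's quasi-likelihood test, at a Benjamini-Hochberg adjusted p under 0.05 over all genes tested, 29 of the 37 genes were lower, 1 was higher and 7 did not pass. Over all tested genes 23.7% were called lower and 24.5% higher, 48.2% in either direction. The median log2 fold change, UXS1 KO minus control, was -0.49 for the 37 genes and 0.00 for all tested genes. All 17 cell-cycle-linked genes were lower, with a median of -0.59 and a range from -0.85 (XRCC2) to -0.28 (CHEK1). Of the 10 sensor or end-joining genes 5 were lower, none was higher, and the median was -0.16; at an unadjusted p under 0.05 the same test called 5 lower and 1 higher, and DESeq2 called 0 higher at its adjusted p. The 10 unclassified genes held 7 that were lower, 1 that was higher and a median of -0.32. The classes themselves were not set against each other by a test.

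The falls were moderate in size. When edgeR's test required a change beyond 0.32 on the log2 scale, 19 of the 37 genes were called, all of them lower, beside 4.29% of all tested genes lower and 8.29% higher. Those 19 comprised 15 of the 17 cell-cycle-linked genes and 4 of the 10 unclassified genes. No called gene changed as much as 2-fold, and 11 of the 30 called genes changed at least 1.5-fold. In 28 of the 37 genes every UXS1 KO library was below every control library in CPM (counts scaled to a common library size), as in 26.9% of all tested genes, and 54.5% of all tested genes had no overlap in either direction.

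**Figure D1:**
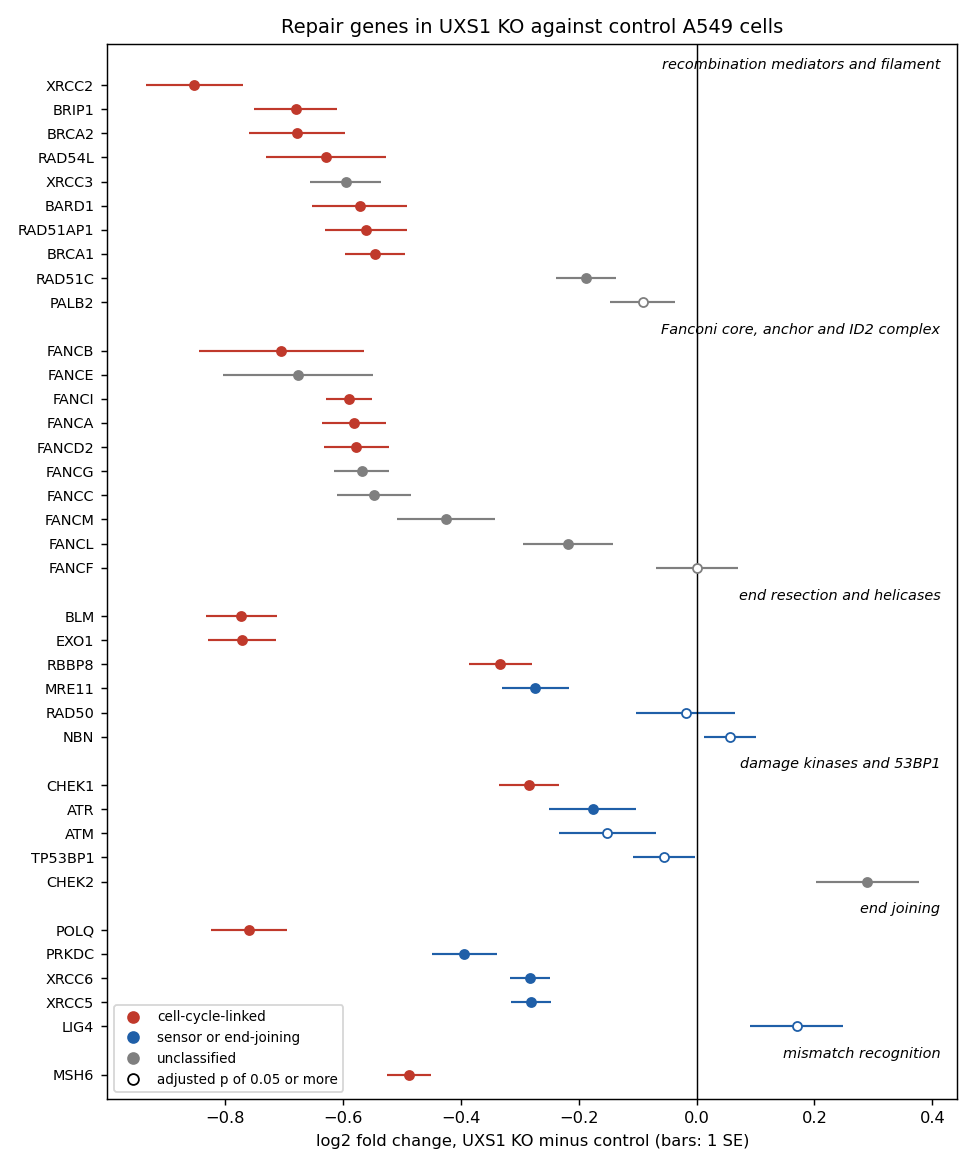
Log2 fold change of the 37 repair genes (horizontal axis, UXS1 KO minus control, 3 libraries each), grouped by role; points are edgeR estimates, bars are 1 standard error, and open points had an adjusted p of 0.05 or more. XRCC2 lies farthest left at -0.85, and CHEK2 is the only called gene on the right, at 0.29.

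The targeted gene and the libraries were checked first. UXS1 itself had 34.6 ± 0.374 CPM in UXS1 KO against 63.9 ± 2.33 CPM in control libraries (SD, n = 3 each), which is 54.1% of control, with no overlap; an exact permutation test gave p = 0.1, the smallest value possible with 3 against 3. Cas9 cuts need not lower a transcript, so this value does not measure the loss of the protein. Totals ran from 21121489 to 22160405 counts per library, so 1 CPM stood for 21.1 to 22.2 counts. The repair genes had between 55 (FANCB) and 11050 (XRCC5) counts in a library, and their median coefficient of variation was 5.45% in control and 4.28% in UXS1 KO libraries. All 6 epithelial markers were detected, and their summed level overlapped between groups, at 13202 to 14421 CPM in control and 13344 to 13368 CPM in UXS1 KO libraries; edgeR called 3 of them higher (CDH1, EPCAM and KRT19, by 0.86, 0.67 and 0.55 on the log2 scale) and 1 lower (KRT7, -0.69). Leukocyte markers summed to 2.27 to 2.39 CPM in control and 3.87 to 4.15 CPM in UXS1 KO libraries, with CD3E at 0 and both tested markers called higher (LYZ by 3.04 and ITGAM by 0.49). Alveolar type 2 markers summed to 103 to 110 and 124 to 133 CPM, nearly all from ABCA3, and endothelial markers to 0.91 to 1.71 and 1.27 to 1.52 CPM. Fibroblast markers summed to 15.1 to 15.5 CPM in control and 15.04 to 18.8 CPM in UXS1 KO libraries, with COL1A2 at 0; 2 of the 3 tested, PDGFRA and LUM, were called higher, by 0.99 each. The part of these marker changes in the repair gene values was not tested. In bulk RNA, fewer cells of a type or cell cycle stage and less RNA per cell cannot be told apart.

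Promoter sequences of the 5 genes with the largest falls and of 3 genes that did not fall are shown here, because many cell-cycle genes carry short words bound by E2F factors close to their start. RefSeq promoter windows, each running from 250 bases before to 50 bases after an annotated start on GRCh38.p14, were held for 33 of the 37 genes, some of which have several windows that can overlap. They were searched on both strands for 4 E2F-type words. Each place in the genome counted once, these were TTCCCGC, at 18 places in the repair genes, then TTGGCGC at 4 places, next TTCGCGC at 3 places, and finally TTGCCGC at 1 place. TTTGAA, the CHR element of many G2/M genes, and the CCAAT box were also searched. Capitals below mark the E2F-type words, read on either strand, and each sequence is printed 5′ to 3′ in the direction of transcription. The 5 with the largest falls come first: XRCC2 (chr7:152676092-152676391, minus strand), BLM (chr15:90717096-90717395, plus), EXO1 (chr1:241847954-241848253, plus, the first of its windows), POLQ (chr3:121545939-121546238, minus) and FANCB (chrX:14873020-14873319, minus).
XRCC2: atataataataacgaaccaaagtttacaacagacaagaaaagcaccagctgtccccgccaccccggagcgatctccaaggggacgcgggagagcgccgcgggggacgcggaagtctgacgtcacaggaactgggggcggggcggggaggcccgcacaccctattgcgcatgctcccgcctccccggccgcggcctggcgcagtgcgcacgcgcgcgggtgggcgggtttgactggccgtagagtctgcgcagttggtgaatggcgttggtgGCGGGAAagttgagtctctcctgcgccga
BLM: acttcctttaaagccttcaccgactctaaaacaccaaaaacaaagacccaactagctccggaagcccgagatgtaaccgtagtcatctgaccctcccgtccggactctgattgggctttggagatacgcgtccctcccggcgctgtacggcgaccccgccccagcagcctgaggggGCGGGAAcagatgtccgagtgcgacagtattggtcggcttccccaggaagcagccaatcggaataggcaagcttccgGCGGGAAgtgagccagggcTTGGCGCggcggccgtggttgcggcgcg
EXO1: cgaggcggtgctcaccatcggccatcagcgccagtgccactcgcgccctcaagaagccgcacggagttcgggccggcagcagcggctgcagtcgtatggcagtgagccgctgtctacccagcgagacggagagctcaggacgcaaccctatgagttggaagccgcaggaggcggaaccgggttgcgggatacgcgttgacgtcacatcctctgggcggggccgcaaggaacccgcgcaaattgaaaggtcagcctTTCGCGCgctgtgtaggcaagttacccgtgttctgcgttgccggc
POLQ: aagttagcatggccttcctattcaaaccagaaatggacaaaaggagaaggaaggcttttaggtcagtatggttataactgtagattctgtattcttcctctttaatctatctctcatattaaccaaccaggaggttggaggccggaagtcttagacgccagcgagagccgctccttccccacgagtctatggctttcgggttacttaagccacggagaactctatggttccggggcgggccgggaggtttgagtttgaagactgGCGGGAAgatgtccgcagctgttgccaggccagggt
FANCB: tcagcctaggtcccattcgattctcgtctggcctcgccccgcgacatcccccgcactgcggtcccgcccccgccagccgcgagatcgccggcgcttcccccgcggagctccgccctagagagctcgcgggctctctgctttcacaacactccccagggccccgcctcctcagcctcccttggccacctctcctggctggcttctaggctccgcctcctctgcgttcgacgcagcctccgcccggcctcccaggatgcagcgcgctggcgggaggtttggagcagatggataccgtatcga
The next 3 are examples of genes that did not fall: RAD50 (chr5:132556727-132557026, plus), CHEK2, the gene called higher (chr22:28741771-28742070, minus), and FANCF, the one of them with an E2F-type word (chr11:22625774-22626073, minus).
RAD50: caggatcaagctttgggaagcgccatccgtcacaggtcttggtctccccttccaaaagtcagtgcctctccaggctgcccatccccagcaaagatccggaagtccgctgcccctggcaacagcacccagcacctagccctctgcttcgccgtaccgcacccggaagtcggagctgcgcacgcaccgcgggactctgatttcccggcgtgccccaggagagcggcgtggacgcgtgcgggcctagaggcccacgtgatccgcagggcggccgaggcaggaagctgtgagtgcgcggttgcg
CHEK2: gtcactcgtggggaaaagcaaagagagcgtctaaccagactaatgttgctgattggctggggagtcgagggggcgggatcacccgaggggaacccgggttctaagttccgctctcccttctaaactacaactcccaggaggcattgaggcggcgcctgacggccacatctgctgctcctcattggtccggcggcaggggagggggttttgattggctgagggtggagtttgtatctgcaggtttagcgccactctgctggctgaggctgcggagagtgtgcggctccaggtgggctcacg
FANCF: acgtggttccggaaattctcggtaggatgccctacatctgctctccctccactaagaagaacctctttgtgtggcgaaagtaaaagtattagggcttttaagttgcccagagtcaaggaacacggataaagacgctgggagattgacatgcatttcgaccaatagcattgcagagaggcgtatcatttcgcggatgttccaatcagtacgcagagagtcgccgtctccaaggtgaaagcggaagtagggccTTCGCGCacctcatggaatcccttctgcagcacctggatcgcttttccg
XRCC2, BLM, EXO1 and POLQ each had an E2F-type word within 30 bases of the annotated start, and BLM carried 3 such words. FANCB, the fifth, had none, nor had the second window of EXO1. FANCF carried an E2F-type word at its start although its transcript did not differ between groups, and no E2F-type word was found in these windows of RAD50 and CHEK2.

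At least 1 E2F-type word was present in the windows of 19 of the 33 repair genes (57.6%), compared with 24.6% of 11148 tested genes and 15.3% of all 27305 genes that have a window. By class the word was found in 12 of 16 cell-cycle-linked genes, 6 of 10 unclassified genes and 1 of 7 sensor or end-joining genes (XRCC6). Because the classes were drawn up with E2F regulation in mind, that order is partly built in. Of the 26 repair genes called lower 18 had a word, and of the 7 not called lower 1 had it (FANCF). The median change on the log2 scale was -0.58 over the 19 genes with a word and -0.18 over the 14 genes without. Among all tested genes the contrast was small, since 32.9% of the 2744 genes with a word and 23.6% of the 8404 genes without were called lower, with medians of -0.05 and 0.01. The cell-cycle-linked genes BRCA2, FANCB, CHEK1 and RBBP8 fell with no E2F-type word in their windows. Of the 26 distinct places, 19 began no more than 50 bases before an annotated start or after it, and none shared bases with another such place or with CCAAT. The CHR word was found in 4 of 33 genes, 12.1% against 13.7% of tested genes, and CCAAT in 18 of 33, 54.5% against 42.7%. These matches describe letters in a window and not bound sites.

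**Figure D2:**
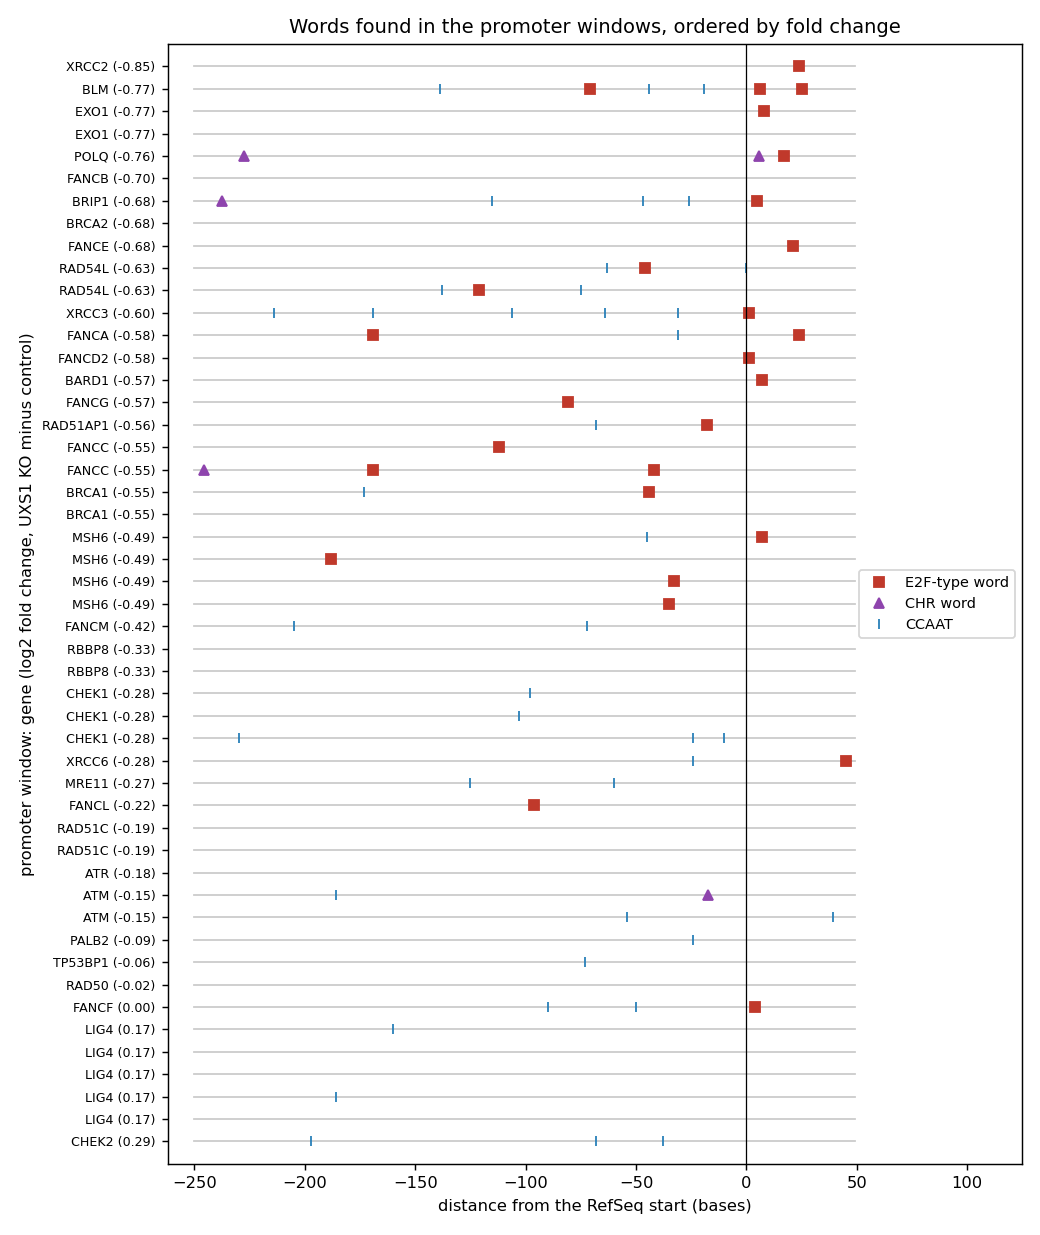
Positions of E2F-type words (squares), CHR words (triangles) and CCAAT (ticks) in 49 promoter windows of 33 repair genes, with distance from the RefSeq start in bases on the horizontal axis and genes ordered by log2 fold change. Overlapping windows of RAD54L and of MSH6 each show 1 place in the genome again; E2F-type words are found mostly in the upper part of the plot, where the falls are largest.

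Among the recombination mediators and filament proteins 9 of 10 were lower, with a median log2 fold change of -0.58. XRCC2, a paralog of the recombinase that helps build the recombinase filament, was at 15.7, 16.7 and 15.3 CPM in the control libraries and 8.96, 9.24 and 8.27 CPM in the UXS1 KO libraries. The groups lay far apart, and XRCC2 stood at 55.5% of control (log2 fold change -0.85, SE 0.082, edgeR adjusted p = 2.4e-09), the steepest fall of the 37. BRCA2, which loads the recombinase on resected DNA, was at 17.7, 15.8 and 16.96 CPM in control and 11.5, 10.3 and 9.79 CPM in UXS1 KO. Its partner PALB2, which bridges BRCA1 and BRCA2, was at 29.7, 28.9 and 28.9 CPM in control and 28.0, 27.4 and 26.7 CPM in UXS1 KO. BRCA2 fell clearly (-0.68, SE 0.082, edgeR adjusted p = 1.1e-07). PALB2 did not pass the test (-0.09, edgeR adjusted p = 0.18), although its UXS1 KO libraries were all below its control libraries.

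BRCA1, a ubiquitin ligase that promotes end resection, was at 83.0, 74.7 and 71.8 CPM in control and 54.7, 52.5 and 50.2 CPM in UXS1 KO. BARD1, its obligate partner, was at 15.7, 16.8 and 15.2 CPM in control and 9.86, 11.5 and 10.7 CPM in UXS1 KO. The pair fell together, by 0.55 and 0.57 on the log2 scale, with no overlap of groups in either gene. BRIP1, a helicase that binds BRCA1, fell by 0.68 (SE 0.070, edgeR adjusted p = 8.1e-09). RAD54L, a motor protein that drives strand exchange, fell by 0.63, and RAD51AP1, which stimulates it, fell by 0.56. XRCC3, another such paralog, fell by 0.60, from 34.4 to 39.1 CPM in control to 23.3 to 25.3 CPM in UXS1 KO. RAD51C, the paralog that pairs with XRCC3, fell by 0.19 (edgeR adjusted p = 0.0033), the smallest called change of this role. The exons of XRCC3 overlap those of KLC1 on the opposite strand over 76.7% of their length, and those of RAD54L overlap LRRC41 over 25.1%; the strand setting of the counting is not given in the sources used here, so reads there could come from either gene.

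The Fanconi genes fell about as far, 9 of 10 being lower with a median log2 fold change of -0.57. FANCI was at 132, 128 and 130 CPM in control and 87.2, 84.2 and 87.0 CPM in UXS1 KO. FANCD2, which forms with FANCI the complex that receives ubiquitin, was at 48.8, 43.5 and 49.1 CPM in control and 30.2, 32.4 and 32.1 CPM in UXS1 KO. Neither gene overlapped between groups, and their log2 fold changes were -0.59 (SE 0.038, edgeR adjusted p = 1.1e-12) and -0.58 (SE 0.055, edgeR adjusted p = 2.1e-09). Of the core complex, FANCA and FANCG, which bind each other, fell by 0.58 and 0.57, and FANCC by 0.55. FANCE, which connects the core to FANCD2, was at 8.69, 7.27 and 6.05 CPM in control and 4.39, 4.62 and 4.78 CPM in UXS1 KO. Its control libraries were widely spread but all above UXS1 KO (-0.68, SE 0.13, edgeR adjusted p = 8.5e-05). FANCB, a structural subunit, was the least abundant by counts, at 5.32, 5.15 and 5.53 CPM in control and 3.44, 2.59 and 3.76 CPM in UXS1 KO, and fell by 0.70 (SE 0.14, edgeR adjusted p = 0.00015).

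Other Fanconi subunits moved less. FANCM, the translocase that anchors the core to DNA, fell by 0.42 (edgeR adjusted p = 0.00012) but was not called with a required size of 0.32 on the log2 scale (edgeR adjusted p = 0.21). FANCL, the ubiquitin ligase of the core, was at 19.6, 19.8 and 16.5 CPM in control and 16.5, 15.1 and 16.5 CPM in UXS1 KO. Its groups overlapped, and the fall of 0.22 (edgeR adjusted p = 0.021) was lost without control library 1, control library 2 or UXS1 KO library 2 (adjusted p = 0.0960, 0.0969 and 0.106). FANCF, an adaptor within the core, was at 19.1, 18.7 and 19.8 CPM in control and 17.6, 20.8 and 19.1 CPM in UXS1 KO, a log2 fold change of 0.00. The spread of FANCF in UXS1 KO enclosed its control values. Opposite-strand exons overlap FANCA (ZNF276, 23.6%), FANCL (VRK2, 18.7%) and FANCF (GAS2, 11.3%).

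**Figure D3:**
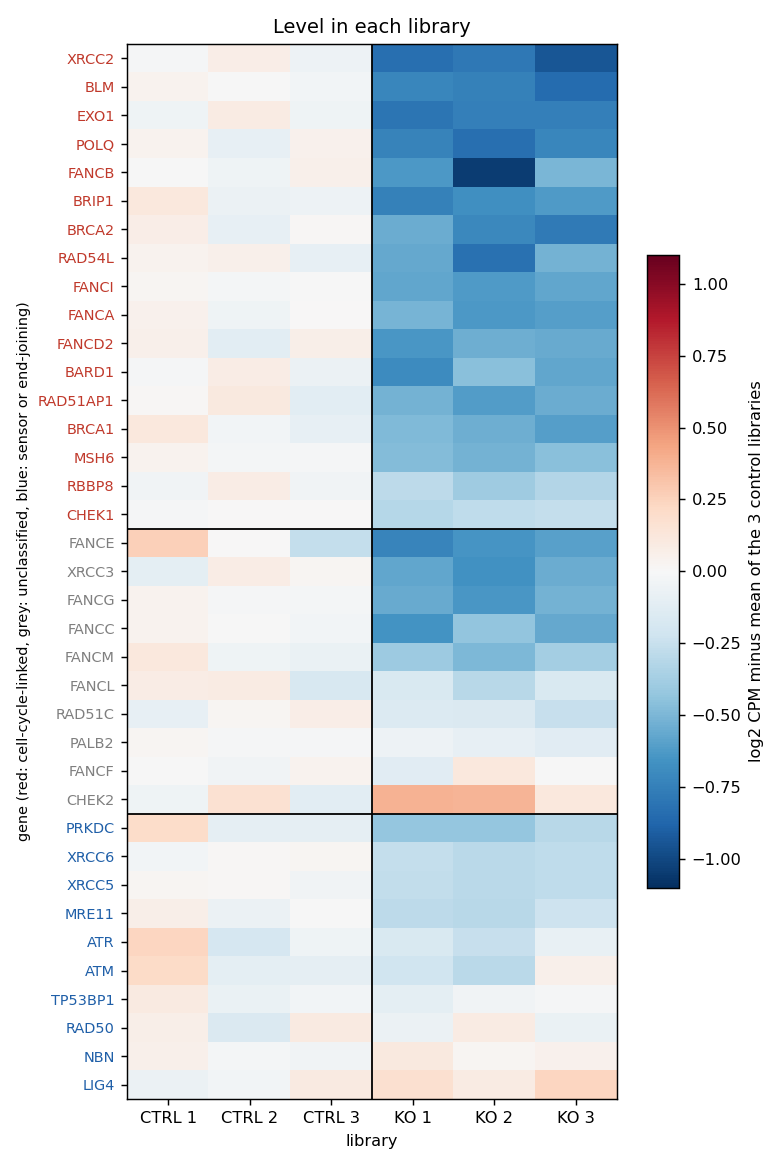
Log2 CPM of each repair gene in each of the 6 libraries minus the mean of the 3 control libraries, by class and, within a class, by fold change. Blue (lower) fills the UXS1 KO columns of the cell-cycle-linked block from XRCC2 to CHEK1, and fades toward FANCF, NBN and LIG4; control library 1 is warm for PRKDC, ATR and ATM.

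Of the resection factors and helicases 4 of 6 were lower. BLM, the helicase that dissolves joint molecules, was at 32.8, 31.8 and 31.3 CPM in control and 19.4, 19.0 and 17.8 CPM in UXS1 KO. EXO1, the nuclease of long-range resection, was at 36.2, 39.8 and 36.3 CPM in control and 21.5, 22.2 and 22.1 CPM in UXS1 KO. Both stood at 58.6% of control with wide gaps between groups, and both fell by 0.77 on the log2 scale (SE 0.060 and 0.058, edgeR adjusted p = 4.0e-11 and 2.0e-11). RBBP8, which encodes CtIP, the factor that starts resection with the MRE11 complex, fell by 0.33 (edgeR adjusted p = 9.5e-06). Within the complex that senses and trims ends, the nuclease MRE11 was at 32.8, 30.0 and 31.2 CPM in control and 25.7, 25.4 and 26.8 CPM in UXS1 KO. RAD50, its ATPase, was at 14.1, 12.0 and 14.4 CPM in control and 12.9, 14.3 and 12.8 CPM in UXS1 KO. NBN, which recruits the kinase ATM, was at 66.5, 63.2 and 62.4 CPM in control and 68.9, 64.8 and 66.3 CPM in UXS1 KO. MRE11 fell by 0.27 without overlap (SE 0.057, edgeR adjusted p = 0.00028), whereas RAD50 and NBN overlapped and did not pass (-0.02 and 0.06, edgeR adjusted p = 0.88 and 0.30). A same-strand read-through gene shares 79.7% of the exonic length of RAD50, so its level is uncertain.

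The damage kinases and 53BP1 had the smallest changes of any role, at a median of -0.15 on the log2 scale, and were called in both directions. CHEK1, the kinase that holds the cycle when replication stalls, was at 38.7, 39.1 and 39.0 CPM in control and 31.3, 32.1 and 32.5 CPM in UXS1 KO, and fell by 0.28 (SE 0.051, edgeR adjusted p = 4.1e-05) without overlap. CHEK2, the kinase downstream of ATM, was at 12.4, 14.4 and 11.9 CPM in control and 16.8, 16.7 and 13.95 CPM in UXS1 KO. It was the only gene called higher (0.29, SE 0.087, edgeR adjusted p = 0.0076), its groups overlapped, and it was not called with the required size. By name (the symbol followed by P), CHEK2 has 4 annotated pseudogenes, XRCC6 has 5, and FANCD2, MRE11, RAD51AP1 and RBBP8 have 1 each. Part of the reads of these genes may therefore have been assigned uncertainly. Of these pseudogenes only XRCC6P1 and XRCC6P2 were among the genes counted, with 9 and 50 counts over the 6 libraries. Pseudogenes under other names were not searched for. ATR, the apical kinase of replication stress, was at 45.6, 34.0 and 37.6 CPM in control and 34.5, 32.5 and 36.7 CPM in UXS1 KO. ATM, the apical kinase of chromosome breaks, was at 31.7, 25.5 and 25.7 CPM in control and 23.6, 22.4 and 28.6 CPM in UXS1 KO. Control library 1 was the highest for both kinases and the groups overlapped. ATR just passed (-0.18, SE 0.073, edgeR adjusted p = 0.049), and without control library 1 it was at -0.05 (adjusted p = 0.55); its call was also lost without UXS1 KO library 1 or 2 (adjusted p = 0.0975 and 0.190). ATM did not pass (-0.15, edgeR adjusted p = 0.13). It passed without UXS1 KO library 3 or control library 2 (adjusted p = 0.011 and 0.046), and was at -0.04 without control library 1 (adjusted p = 0.73) and at -0.08 without UXS1 KO library 2 (adjusted p = 0.48). TP53BP1, which shields ends from resection, did not pass (-0.06, edgeR adjusted p = 0.41), with 28.7% of its exonic length shared with TUBGCP4 on the opposite strand.

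Among the end-joining genes 4 of 5 were lower, POLQ by the most. POLQ, the polymerase of theta-mediated joining, was at 29.7, 27.0 and 29.9 CPM in control and 17.4, 16.2 and 17.6 CPM in UXS1 KO. It stood at 59.1% of control (-0.76, SE 0.065, edgeR adjusted p = 2.2e-10) with a wide gap between groups. LIG4, the ligase of classical joining, was at 12.2, 12.5 and 13.7 CPM in control and 14.4, 13.6 and 15.1 CPM in UXS1 KO. Its groups overlapped slightly and it did not pass (0.17, SE 0.079, edgeR adjusted p = 0.077), although it was called higher without control library 3 (adjusted p = 0.040). The Ku subunits XRCC6 (Ku70) and XRCC5 (Ku80), which ring broken ends, were the most abundant of the 37. XRCC6 was at 340, 350 and 353 CPM in control and 290, 282 and 286 CPM in UXS1 KO, and XRCC5 at 503, 498 and 481 CPM and 410, 402 and 407 CPM. Both fell by 0.28 on the log2 scale (SE 0.034 each, edgeR adjusted p = 1.4e-07 and 1.3e-07), a small change with little spread between libraries, and with the limit from pseudogenes given above for XRCC6.

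PRKDC, the DNA-dependent kinase that Ku recruits, was at 394, 319 and 320 CPM in control and 255, 254 and 276 CPM in UXS1 KO. Control library 1 stood apart upward, the groups did not overlap, and PRKDC fell by 0.39 on the log2 scale (SE 0.055, edgeR adjusted p = 1.2e-06). Because PRKDC, ATR and ATM were all highest in control library 1, the median of the 10 sensor or end-joining genes was recomputed without each library: it was -0.04 without control library 1 and between -0.24 and -0.11 without any other library. MSH6, which recognises mismatches left by replication, was at 180, 173 and 173 CPM in control and 126, 122 and 127 CPM in UXS1 KO, and fell by 0.49 (SE 0.037, edgeR adjusted p = 2.6e-11). FBXO11 exons on the opposite strand share 16.2% of the exonic length of MSH6.

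Levels are compared between genes in TPM (counts scaled for both transcript length and library size). The control means ran from 369 TPM for XRCC6 and 316 TPM for XRCC5, through 78.0 TPM for PRKDC, 62.6 for FANCG, 58.2 for FANCI and 55.9 for MSH6, down to 4.59 for BRCA2, 4.46 for RAD50 and 4.03 for ATM. The first 4 of these were separate from their neighbours, FANCI and MSH6 overlapped, and so did BRCA2, RAD50 and ATM. In UXS1 KO the same top 3 stood at 303, 259 and 59.3 TPM, EXO1 moved from place 9 to place 16, CHEK2 from place 26 to place 18, and BRCA2 from place 35 to the last place, 37. Summed over a class, cell-cycle-linked transcripts were at 368 ± 11.3 TPM in control and 249.6 ± 6.74 TPM in UXS1 KO (SD, n = 3 each), 67.7% of control. The sum of the sensor or end-joining genes was 849 ± 26.4 TPM in control and 706 ± 18.5 TPM in UXS1 KO, 83.2% of control, most of it Ku. The unclassified genes went from 211 ± 5.92 TPM to 170 ± 2.88 TPM, 80.8% of control. As a share of the TPM of all 37, the cell-cycle-linked genes took 25.8%, 25.9% and 25.7% in control and 22.2%, 22.1% and 22.2% in UXS1 KO libraries, so the make-up of the repair transcripts shifted by a few percentage points in every library.

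**Figure D4:**
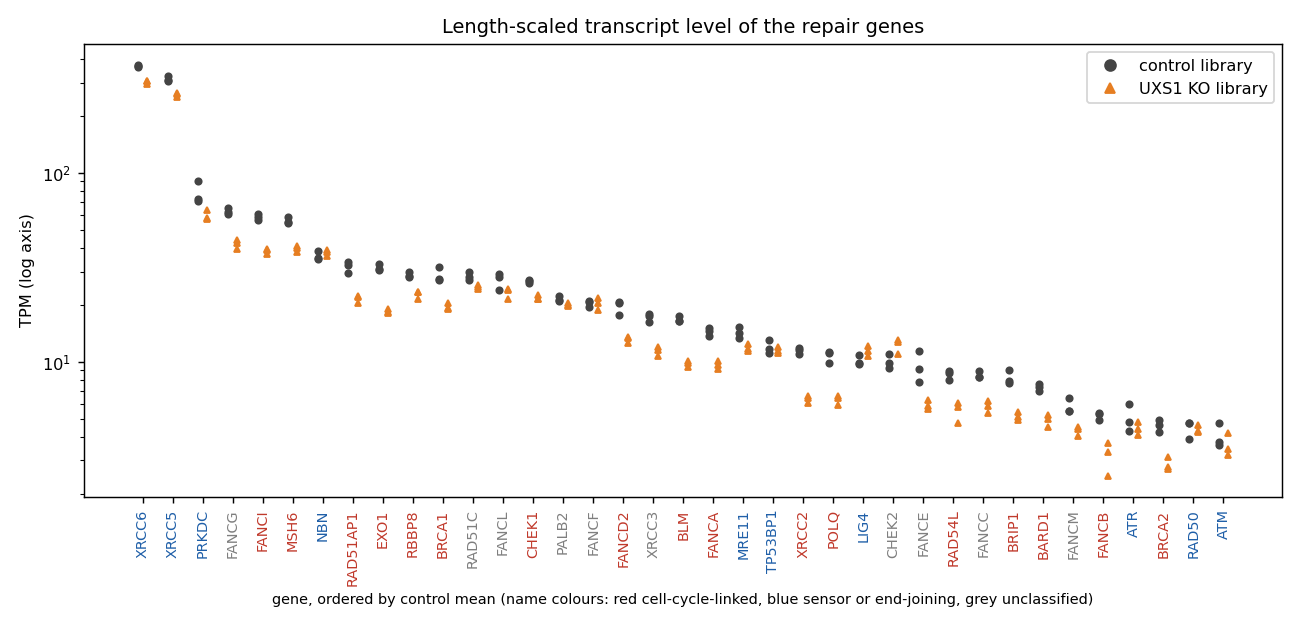
TPM of the 37 repair genes in the 3 control (circles) and 3 UXS1 KO (triangles) libraries on a log axis, genes ordered by control mean. The Ku genes XRCC6 and XRCC5 stand above 250 TPM in every library, and the circles lie clear of the triangles for most cell-cycle-linked genes.

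Within a library the TPM ratio of a pair of genes shows whether the pair moved apart. Some pairs are partners in a complex, and others set a cell-cycle-linked gene against a sensor or end-joining gene. A shift in the latter pairs restates the difference between those classes. A few pairs are of neither kind, such as CHEK1 to CHEK2, which sets a cell-cycle-linked gene against an unclassified one. BRCA1 to BARD1 was 3.92 ± 0.347 in control and 4.01 ± 0.440 in UXS1 KO (SD, n = 3 each). FANCD2 to FANCI was 0.337 and 0.340, FANCA to FANCG 0.230 and 0.228, and XRCC5 to XRCC6 0.855 and 0.856. These ratios overlapped between groups, as the subunits of each complex had fallen by similar amounts. POLQ to LIG4 was 1.14, 1.01 and 1.02 in control and 0.562, 0.557 and 0.545 in UXS1 KO libraries. CHEK1 to CHEK2 went from a mean of 2.67 to 1.80, BRCA2 to PALB2 from 0.214 to 0.142, and EXO1 to MRE11 from 2.22 to 1.57. BRCA1 to TP53BP1, the pair that opposes resection and its block, went from 2.40 to 1.71, and MRE11 to RAD50, in 1 complex, from 3.21 to 2.69. In those 6 pairs the groups did not overlap, nor did RAD54L to XRCC6, and each exact two-sided permutation test gave p = 0.1, the smallest possible. Adjusted over the 16 ratios examined the lowest value was 0.23, so none passes a threshold of 0.05 with 3 libraries a group. Not every pair across the classes separated. CHEK1 to ATR, a cell-cycle-linked gene against a sensor, had means of 5.40 in control and 4.94 in UXS1 KO, and its groups overlapped. CHEK2 to ATM, PRKDC to XRCC6, NBN to RAD50 and ATM to ATR also overlapped between groups.

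Repair genes outside the 37 showed a like ordering. Of 47 tested genes in a further list of recombination and Fanconi factors 30 were lower and 1 higher, with a median log2 fold change of -0.27. Among them USP1, which removes ubiquitin from FANCD2, fell by 0.56, UBE2T, the conjugating enzyme that works with FANCL, by 0.46, and RPA1, which coats single-stranded DNA, by 0.38, while the helicase gene RECQL5 rose by 0.18. Of 26 checkpoint and chromatin-sensing genes 11 were lower and 2 higher, with a median of -0.08. CLSPN, the adaptor that lets ATR activate CHEK1, fell by 0.76, H2AX, the histone phosphorylated at breaks, by 0.66, and RIF1, a 53BP1 effector, by 0.58, while SHLD1, a subunit of the shieldin complex, rose by 0.65 and BABAM2, of a BRCA1-containing complex, by 0.21. Of 16 tested end-joining and single-strand repair genes 8 were lower and 2 higher, with a median of -0.17. LIG1, the replicative ligase, fell by 0.41, PAXX, a Ku-binding factor, by 0.31 and PARP1, a strand-break sensor, by 0.25, while POLL and APTX rose by 0.21 and 0.16. Over these 3 lists 49 of 89 tested genes were lower and 5 higher. All changes named here passed edgeR's test at an adjusted p under 0.05.

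Genes of the cell cycle itself moved with the repair genes. Of 42 genes of the G1/S transition and DNA replication 41 were lower (median -0.58 on the log2 scale), and all 32 genes of G2/M and mitosis were lower, with a median of -0.72. The cell-cycle-linked repair genes, at -0.59, lay beside these lists. The part of a changed share of cycling cells in the repair gene values was not tested.

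**Figure D5:**
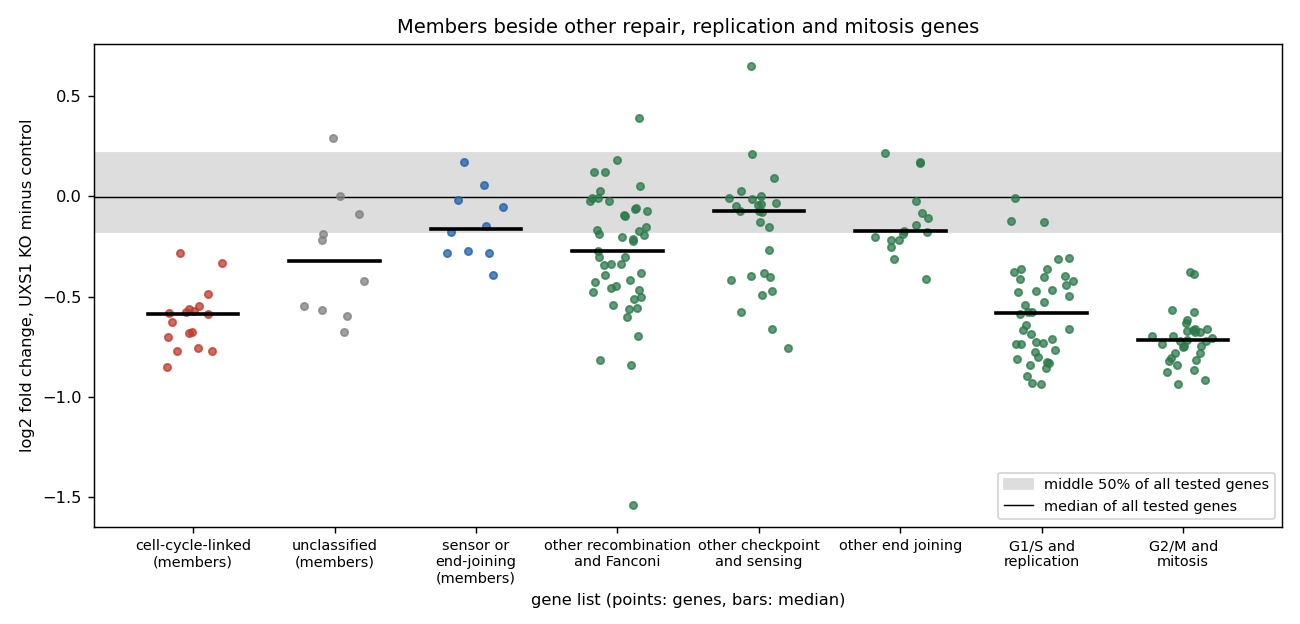
Log2 fold change (vertical axis, UXS1 KO minus control) of each tested gene in the 3 classes of the 37 repair genes and in other repair, replication and mitosis lists; bars are medians and the grey band holds the central part of all tested genes. The G2/M list sits lowest at a median of -0.72, and the checkpoint list lies closest to 0 at -0.08.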

How the data were processed

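RNA from 6 A549 cultures was sequenced, 3 per group. Per the file headers, the authors deposited whole-number counts per gene and TPM values per gene; the counts carry no normalization. STAR, featureCounts, DESeq2 and hg38 are named per the submitters' processing notes; no source used here gives their versions, the annotation release or the strand setting. Groups and replicate numbers came from the sample titles.

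Counts were filtered with filterByExpr (minimum count 10; 15757 of 28317 genes kept), scaled by TMM (factors 0.987 to 1.01) and tested with edgeR 4.0.16 in R 4.3.3 (quasi-likelihood F test, group as the only term, two-sided, Benjamini-Hochberg adjusted p under 0.05); glmTreat tested for changes beyond 1.25-fold, which is 0.32 on the log2 scale. CPM values use the same factors. Gene positions, exon overlaps and pseudogenes were taken from GENCODE 29 on GRCh38, matched on identifiers without version, and promoter windows from RefSeq on GRCh38.p14. In simulated data over 15757 genes with this comparison's means and depths, 50 genes were changed at each of 1.25-, 1.5-, 2- and 4-fold. Every simulated gene had the same variance setting (edgeR's common dispersion, 0.0011). Differences in variance between genes were left out, so recovery and false calls may be worse in the real libraries. The quasi-likelihood test recovered 64% of the 1.25-fold changes, 78% of those at 1.5-fold and 96% of the larger ones. Of its 173 calls 6 were false. With glmTreat 0% were recovered at 1.25-fold, 60% at 1.5-fold, 94% at 2-fold and 96% at 4-fold. The share of true changes recovered in the real libraries was not tested.

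The 37 genes, their classes, the other gene lists and the 16 ratios were chosen with earlier results of these data known. Named genes are the 37, UXS1 and, for each other list, up to 3 called genes with the smallest adjusted p in each direction; some genes that this rule names are not reported here, and the marker genes named were chosen after their values were seen. Alternatives were DESeq2 1.42.0, limma 3.58.1 (voom on counts; trend on log2 TPM with a pseudocount of 1 or 0.1), other scalings and filters, a replicate block, and leaving out each library. An offset for GC content and transcript length was added after the data were seen. No library was a copy of another.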

Additional observations from a re-analysis of the deposited data

How the results depend on the processing

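Of the 37 repair genes 28 kept their call under all 19 other settings, and FANCB under the 18 in which it was tested (it fell below a mean of 5 CPM); the calls of PALB2, FANCF, FANCL, RAD50, ATM, ATR, CHEK2 and LIG4 changed or their near-zero sign did. ATR lost its call in 12 settings and FANCL in 7. Genes called lower ranged from 27 to 30, and every cell-cycle-linked gene tested was lower in each setting. With upper-quartile scaling or a minimum mean of 5 CPM, 2 genes were higher (the added one being LIG4, adjusted p = 0.045 and 0.047), so that 1 sensor or end-joining gene was higher; leaving out 1 library gave 1 to 2 and 0 to 1. The 19 genes lower by more than 0.32 on the log2 scale became 7 with log2(TPM + 1), 11 with log2(TPM + 0.1), 6 with log2(TPM + 1) unfiltered, 13 with DESeq2 and 4 when 1.5-fold was required. Of all genes, 676 past that size became 348, 389, 289, 362 and 165 in that order, and 2169 at 1.1-fold. Unfiltered log2(TPM + 1) left 0 repair genes higher (CHEK2, adjusted p = 0.089) and 3 rather than 5 other repair genes higher, the latter count also with the added GC and length offset. That offset also turned the split of all genes from 3727 lower and 3863 higher to 4944 lower and 3250 higher. The cell-cycle-linked median was -0.54 with log2(TPM + 1), filtered or not, and -0.64 with the offset. The offset also moved the median of all tested genes, from -0.00301 to -0.0570. The sensor or end-joining median ran from -0.243 to -0.0447 without 1 library. FANCF changed sign at values near 0: -0.00246 with DESeq2, -0.00211 with limma-voom, -0.000629 with RLE factors, -0.00291 unfiltered, -0.00454 with log2(TPM + 1), -0.00483 with log2(TPM + 0.1), -0.0555 with the offset and -0.0599 to 0.0581 without 1 library. RAD50 was at 0.00593 with upper-quartile scaling and -0.0954 to 0.0289 without 1 library. The cause of these shifts was not tested. Deviations of same-numbered libraries correlated at 0.0108, 0.110 and 0.145, and those of differently numbered libraries at -0.156 to 0.0548. With 3 libraries a group these values cannot decide whether the numbers pair the cultures. A replicate block left 29 genes lower and 19 past the required size, and gave FANCF -0.000689. It called 3896 of all genes lower and 4002 higher.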
